A study of Mus musculus with 42 samples.

Results

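Heat shock and chaperone genes were examined as a set of 40 named genes, drawn by name from the 54353 genes of the bulk count tables for their roles in the cytosol and the mitochondria. The data came from wild-type mouse (C57BL/6 where the labels name a strain) uterine tissue-resident NK (trNK) cells, innate lymphocytes of the uterine lining, and covered 34 bulk RNA-seq libraries and 1 pooled single-cell experiment. In the fresh cells, trNK sorted as CD45+NK1.1+NKp46+CD49a+CXCR6- came from virgin mice and from gestation days 6.5 and 8.5 (gd6.5, gd8.5), and a second sort at gd8.5 separated trNK by CD55 and 4-1BB into low, intermediate and high cells (CB_low, CB_int, CB_hi). In the inhibitor culture, live NK1.1+ cells were recovered after culture without IL-21 (ctrl), with 20 ng/mL IL-21 for 3 days (Il21), or with the same IL-21 plus Stattic, a small molecule STAT3 inhibitor, at 1 µM by the labels (Il21_iSTAT3). The study's methods print another unit for that dose and put IL-15 in every medium, so the controls carried IL-15 too. By the study's text, though not its culture methods, these cultures and the time course both started from the CD55 and 4-1BB low subset sorted at gd6.5. The time course followed gd6.5 trNK at 0, 6, 24 and 72 h in IL-15 with or without 20 ng/mL IL-21, and its 0 h libraries also exist in both forms. Every group held 2 libraries. Nothing in the labels says that they came from separate mice or cultures, so p-values measure only the spread between these samples, which may be technical. The single-cell sort took live CD45+NK1.1+NKp46+ cells from virgin and gd8.5 uteri pooled from several mice.

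Chaperones hold unfolded proteins and help them reach their native fold. Hsp70 proteins work with J-domain proteins that deliver clients and with exchange factors that release ADP, Hsp90 works with co-chaperones on signalling proteins such as kinases and steroid receptors, and the ring-shaped TRiC/CCT complex folds actin and tubulin. Heat shock factor 1 (encoded by Hsf1) binds repeated GAA and TTC units, the heat shock element, and raises the inducible Hsp70 genes Hspa1a and Hspa1b from a low resting level when unfolded protein accumulates. The 40 genes fall by role into 10 of Hsp70 and its partners (Hspa1a, Hspa1b, Hspa8, Hspa4, Hspa4l, Hsph1, Hspbp1, Bag1, Bag3, St13), 7 J-domain proteins (Dnaja1, Dnaja2, Dnajb1, Dnajb4, Dnajb6, Dnajc2, Dnajc7), 9 of Hsp90 and its co-chaperones (Hsp90aa1, Hsp90ab1, Stip1, Fkbp4, Ahsa1, Cdc37, Ptges3, Chordc1, Cacybp), 7 CCT subunits (Tcp1, Cct2, Cct3, Cct4, Cct5, Cct7, Cct8), 3 mitochondrial chaperones (Hspa9, Hspd1, Hspe1) and 4 others (Hsf1, Hsf2, the small heat shock gene Hspb1 and the ubiquitin gene Ubb).

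Promoter sequence was searched for the heat shock element because many of these genes moved together in the inhibitor culture. RefSeq promoters of build GRCm38.p6, from 250 bases before to 50 bases after each start, were given for 32 of the 40 genes and not for Hspa8, St13, Dnajc2, Hsp90aa1, Hsp90ab1, Cct4, Hspa9 and Hsf1. A run of 3 units (GAANNTTCNNGAA or TTCNNGAANNTTC, each the reverse complement of the other) lay in 5 of the 32, 15.6%, against 179 of 27025 genes in all, 0.662%. A run of 2 units (GAANNTTC or TTCNNGAA, each its own reverse complement and part of every 3-unit run) lay in 15 of the 32, 46.9%, against 17% of all genes. The set was drawn by name and holds genes already known to be raised by HSF1, so these shares are a description. Hspd1 and Hspe1 enter the 5 through the same site. The 30-base windows that follow are those of Hspa1a and Hspa1b, whose levels spanned the widest range, and of the 5 genes with 3 units, read 5′ to 3′ on each gene's strand with the motif units in capitals.
Hspa1a, 2 units, chr17:34972242-34972271, minus strand: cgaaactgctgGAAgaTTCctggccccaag
Hspa1b, 2 units, chr17:34959324-34959353, minus strand: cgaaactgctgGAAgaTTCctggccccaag
Hsph1, 3 units, chr5:149636280-149636309, minus strand: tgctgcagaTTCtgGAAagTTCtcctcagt
Dnajb6, 3 units, chr5:29735843-29735872, plus strand: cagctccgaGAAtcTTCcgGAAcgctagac
Chordc1, 3 matches of 3 units, chr9:18292259-18292288, plus strand: accgGAAcgTTCggGAAaaTTCctGAAgca
Hspe1, 2 matches of 3 units, chr1:55088053-55088082, plus strand: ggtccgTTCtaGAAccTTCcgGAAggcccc
Hspd1, 2 matches of 3 units, chr1:55088053-55088082, minus strand: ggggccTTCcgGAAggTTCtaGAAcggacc
Hspd1 and Hspe1, which encode the mitochondrial Hsp60 and its Hsp10 lid, share the same 30 bases read on opposite strands. The Hspa1a and Hspa1b windows lie 115 to 86 bases before each start, and the full promoters were identical at 296 of 300 bases.

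Hspa1a (chr17:34969190-34972156, minus strand, mm10) and Hspa1b (chr17:34956436-34959238, minus strand) encode nearly the same protein, and each has an exonic length equal to its span in the deposited annotation, 2967 and 2803 bases. Of the 100-base stretches of the Hspa1a transcript, 47.1% are also in Hspa1b, and 49.9% of those of Hspa1b are in Hspa1a. A read that lies within such a stretch matches both genes, so the level of each is uncertain, as is any contrast between them. Their sum is given in some passages.

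Library depth ranged from 16421542 to 22932483 gene counts in the gestation series, 11861343 to 20785186 in the subsets, 12189258 to 29536127 in the inhibitor culture and 28539465 to 66462748 in the time course. The natural killer genes Ncr1, Klrb1c, Nkg7, Gzma and Klrk1 were above 0 in all 34 libraries. Of the time-course libraries, 3 of the 4 at 72 h stood apart, with 8488 to 9588 genes at 10 or more counts against 11513 to 13034 in the other libraries. Levels are given as RPKM, reads per kilobase of exon scaled to the library's gene counts, and a gene was tested where it passed 10 RPKM in both libraries of any group of its experiment. Where a comparison has no called gene, its counts at an unadjusted p below 0.05 are from edgeR. In bulk RNA, fewer cells expressing a gene and less of its RNA per cell cannot be told apart.

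With the STAT3 inhibitor, 18 of the 36 genes tested rose against IL-21 alone and none fell, at an adjusted p below 0.05 in edgeR's quasi-likelihood test with Benjamini-Hochberg adjustment over all 4158 genes tested. Over all genes 1.8% were called higher and 1.15% lower, so these 18 made up 24% of the 75 genes called higher. The 18 were 6 genes of Hsp70 and its partners, 3 J-domain genes, 8 of Hsp90 and its co-chaperones, and Ubb, whereas the 7 CCT subunits and the 3 mitochondrial chaperones were not called. The median change of the 36 genes was 1.80 on the log2 scale against -0.03 for all genes. Hspa1a, Hspa1b, Hspa4l, Hsph1, Bag3 and Dnajb4 passed the filter only through the inhibitor group and so had to differ in level. Of the other 30 genes, 13 were called higher. Both inhibitor libraries lay above both IL-21 libraries in 31 of the 36 genes, against 23.2% of all genes, and below in 2 (Dnajc2 and Dnajc7), against 23.5%. The 31 and the median of 1.80 were taken over all 36 genes, with the 6 that had to differ included. The 24% likewise includes the 5 of those 6 that were called. None of these 3 values was taken without them. The counts by role include the same 5, all in the Hsp70 and J-domain groups. No CCT subunit or mitochondrial chaperone passed only through the inhibitor group, so the contrast between roles is a description. Hspbp1, Hsf1, Hsf2 and Hspb1 did not pass the filter. Hspb1 read 41.9 RPKM in the first inhibitor library and 1.57 in the second, against 2.31 and 0 with IL-21. Hsf1 itself read 9.39 and 1.89 RPKM with the inhibitor and 1.94 and 7.86 with IL-21 alone, values that overlapped.

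Hspa1a read 187 and 156 RPKM in the inhibitor libraries, 0.0277 and 0.425 RPKM with IL-21 alone, and 0 and 0.111 RPKM in ctrl. As counts these were 16391 and 8865, 1 and 17, and 0 and 6, so that the gene was close to absent from every culture library without inhibitor. Hspa1b read 598 and 430 RPKM with the inhibitor, 0.234 and 2.30 with IL-21, and 0.382 and 0.118 in ctrl. The fitted differences from IL-21 alone were 9.64 (SE 1.08, edgeR adjusted p = 0.00774) for Hspa1a and 8.79 (SE 1.05, edgeR adjusted p = 0.0103) for Hspa1b on the log2 scale, values that depend on how the fit handles so few counts. No culture library without inhibitor reached the inhibitor range for either gene.

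Hsph1, which encodes the large Hsp110 that recharges Hsp70 with ATP, was 1 of the 6 genes that passed the filter only through the inhibitor group. It read 398 and 280 RPKM with the inhibitor, 6.58 and 6.51 RPKM with IL-21 and 6.18 and 5.54 in ctrl, a 55.4-fold rise over IL-21 (log2 5.79, SE 0.36, edgeR adjusted p = 0.00115). Its relative Hspa4l rose from 2.37 and 2.28 RPKM to 25.9 and 22.4 RPKM (log2 3.48, SE 0.33, edgeR adjusted p = 0.00651). Hspa8, the constitutive Hsc70 that every cell carries, was already abundant at 559 and 577 RPKM with IL-21 and 529 and 501 in ctrl, and stood at 3578 and 3877 RPKM with the inhibitor. This was a 7.05-fold rise (log2 2.82, SE 0.30, edgeR adjusted p = 0.00701), so the increase was not limited to genes that were silent before. Hspa4, the other Hsp110-type gene, differed by 1.00 on the log2 scale and was not called (edgeR adjusted p = 0.174).

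The J-domain proteins split. Dnajb1, the partner that drives Hsp70 on stress-damaged clients, read 601 and 622 RPKM with the inhibitor against 22.02 and 56.6 with IL-21 and 26.7 and 34.7 in ctrl (log2 4.08 over IL-21, SE 0.47, edgeR adjusted p = 0.00878). Dnaja1 and Dnajb4 also rose, by 2.64 and 2.68 on the log2 scale. Dnajb6, whose promoter holds 3 units, differed by 0.92 and was not called, and Dnaja2, Dnajc2 and Dnajc7 lay between -0.54 and 0.16.

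Of the Hsp90 group, 8 of 9 genes rose. Hsp90aa1, the inducible Hsp90, went from 113 and 58.5 RPKM to 831 and 1255 (log2 3.69, SE 0.51, edgeR adjusted p = 0.0154), and Hsp90ab1, the constitutive one, from 430 and 434 RPKM to 3106 and 2601 (log2 2.82, SE 0.32, edgeR adjusted p = 0.008). In ctrl these genes read 74.8 and 40.2 RPKM and 418 and 303 RPKM, so no library without inhibitor came near the inhibitor range. Stip1, the adaptor that joins Hsp70 to Hsp90, rose from 80.4 and 109 RPKM, with 96.7 and 91.8 in ctrl, to 713 and 554 (log2 2.85, SE 0.31, edgeR adjusted p = 0.00701). Fkbp4, an immunophilin of steroid receptor complexes, rose from 20.6 and 30.9 RPKM to 217 and 122 (log2 2.83, SE 0.43, edgeR adjusted p = 0.0218). Ahsa1, Ptges3, Chordc1 and Cacybp were higher by 1.76 to 2.69 on the log2 scale. Cdc37, which loads kinases onto Hsp90, was the exception at 0.13, with overlapping libraries.

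Of the chaperonins none was called. The 7 CCT subunits differed by 0.59 to 1.04 on the log2 scale, all upward and none called. Hspd1 read 153 RPKM in each inhibitor library against 75.3 and 60.1 with IL-21 and 66.3 and 60.2 in ctrl (log2 1.27, SE 0.30, edgeR adjusted p = 0.0751). Hspe1 read 294 and 422 RPKM against 121 and 46.9 with IL-21 and 78.2 and 30.2 in ctrl (log2 2.17, SE 0.61, edgeR adjusted p = 0.112). Neither passed the threshold, although their libraries did not overlap. Ubb, a ubiquitin gene, rose from 1783 and 1674 RPKM to 4667 and 6187 (log2 1.75).

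**Figure D1:**
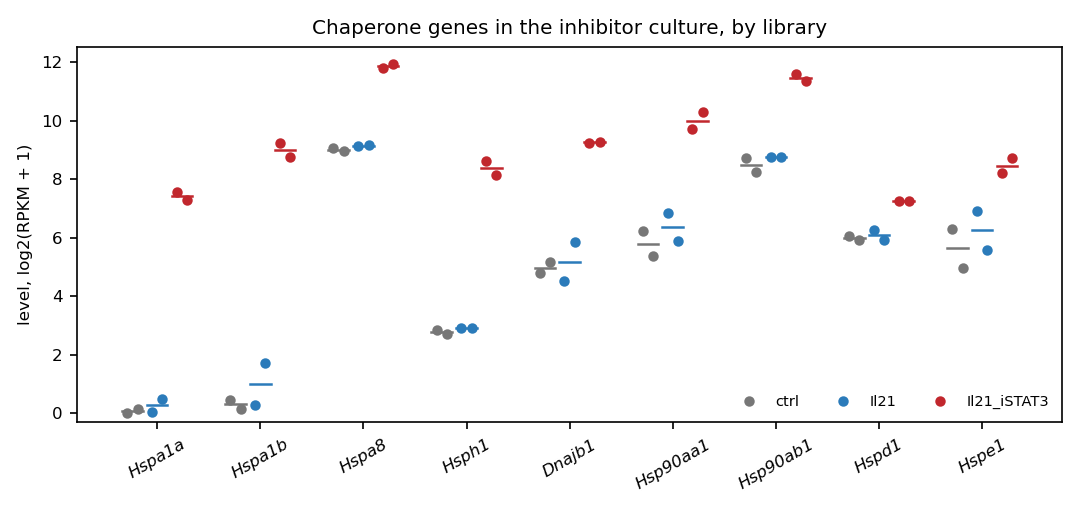
Level of 9 chaperone genes as log2(RPKM + 1) in the 6 libraries of the inhibitor culture, with points for libraries and bars for the mean of 2. Both Il21_iSTAT3 libraries lie above all ctrl and Il21 libraries for each of the 9 genes, and Hspa1a and Hspa1b are near 0 without the inhibitor.

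Against ctrl, which shares the inhibitor libraries with the comparison above, 22 of 36 genes rose and none fell (2.93% of all genes called higher, 1.8% lower). All 6 genes that passed the filter only through the inhibitor group were among the 22, and of the other 30 genes 16 were called. Here the 3 mitochondrial chaperones were among those called, with log2 changes of 1.56 to 3.02, and the CCT subunits again were not, at 0.52 to 1.06. Hsph1 was 70.5-fold, Dnajb1 24.3-fold, Hsp90aa1 22.2-fold, Hsp90ab1 9.66-fold, Hspa8 8.84-fold and Stip1 8.21-fold higher than in ctrl, with edgeR adjusted p-values from 0.000834 to 0.00675. Hspa1a and Hspa1b, near 0 counts in ctrl, gave fitted log2 changes of 11.83 and 11.28. IL-21 alone against ctrl gave no called gene of the 36 (0.289% of all genes called higher, 0% lower). There 2 of them, Hspa1b and Hspa9, had an unadjusted p below 0.05 in edgeR, 5.56% against 9.19% of all genes, and DESeq2 called 1. Hspa8, Hsph1, Dnajb1, Hsp90aa1, Hsp90ab1, Hspd1 and Hspe1 gave log2 differences of 0.29 to 0.84 for IL-21 over ctrl, none called.

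The 40 genes together took 5.71% and 5.92% of all gene counts in the inhibitor libraries and 1.17% to 1.30% in the other 4 culture libraries. Genes known from general knowledge to be raised by HSF1, a list of 20 within the 40, gave 16 of 19 tested called against IL-21 and 19 of 19 against ctrl. The 19 include the 6 genes that passed the filter only through the inhibitor group, and without them the counts were 11 of 13 and 13 of 13. The list was chosen with earlier results of these data known, so its counts are a description. Beside these stand lists that hold none of the 40 genes, all against IL-21. None of 14 endoplasmic reticulum chaperones and none of 30 proteasome genes tested was called in either direction, with medians of -0.25 and 0.06 on the log2 scale (0.76 and 0.37 against ctrl). Of 12 immediate early genes 1 rose, Klf6 at 2.68. Of 8 oxidative stress genes 4 rose, and of these the highest were Srxn1 at 3.19, Hmox1 at 3.05 and Gclm at 2.28. The medians of these lists were 0.92 and 2.26 on the log2 scale. Against ctrl 3 of the 12 and 5 of the 8 rose, against 2.93% of all genes, with medians of 1.93 and 2.33. Hmox1, the haem oxygenase gene, stood at 2640 and 2691 RPKM against 190 and 513 with IL-21 and 23.9 and 17.7 in ctrl, and it also rose with IL-21 alone (log2 4.24, edgeR adjusted p = 0.022).

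Other cell types and library quality were read beside these results. Summed macrophage markers were 23.8 to 36.7 CPM (counts scaled to the library total) in the 6 culture libraries, with 6 or 7 of the 8 markers at 0 in each, and stromal markers were at most 0.0535 CPM with 5 or 6 of 6 at 0. The summed trNK markers Itga1, Ncr1, Klrb1c and Eomes were 2928 and 2910 CPM in ctrl, 902 and 1106 with IL-21 and 845 and 828 with the inhibitor, all 4 above 0 in every library. The NK and ILC list of Ncr1, Klrb1c, Nkg7, Gzma and Klrk1 summed to 9996 and 9342 CPM in ctrl, 13170 and 9587 with IL-21 and 5217 and 6304 with the inhibitor, and the part of this in the result was not tested. The mitochondrial share of counts was 0.861% and 1.15% with the inhibitor and 0.913% to 1.89% without, and genes at 10 or more counts numbered 11851 and 11583 against 11757 to 13064. The summed dividing-cell genes Mki67, Top2a, Ube2c and Rrm2 were 256 and 186 CPM with the inhibitor and 385 to 604 in the other 4, and the part of cell division in the result was not tested. The count of 18 fell when libraries were left out. Without the first Il21_iSTAT3 library 2 genes were called, without the second 9, without the second Il21 library 10 and without the first 12, where 0.168%, 0.697%, 0.794% and 0.938% of all genes were called, against 2.96% with every library. The count of 22 against ctrl became 11 and 10 without the first or second ctrl library, where 0.89% and 1.08% of all genes were called, against 4.74% with every library.

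**Figure D2:**
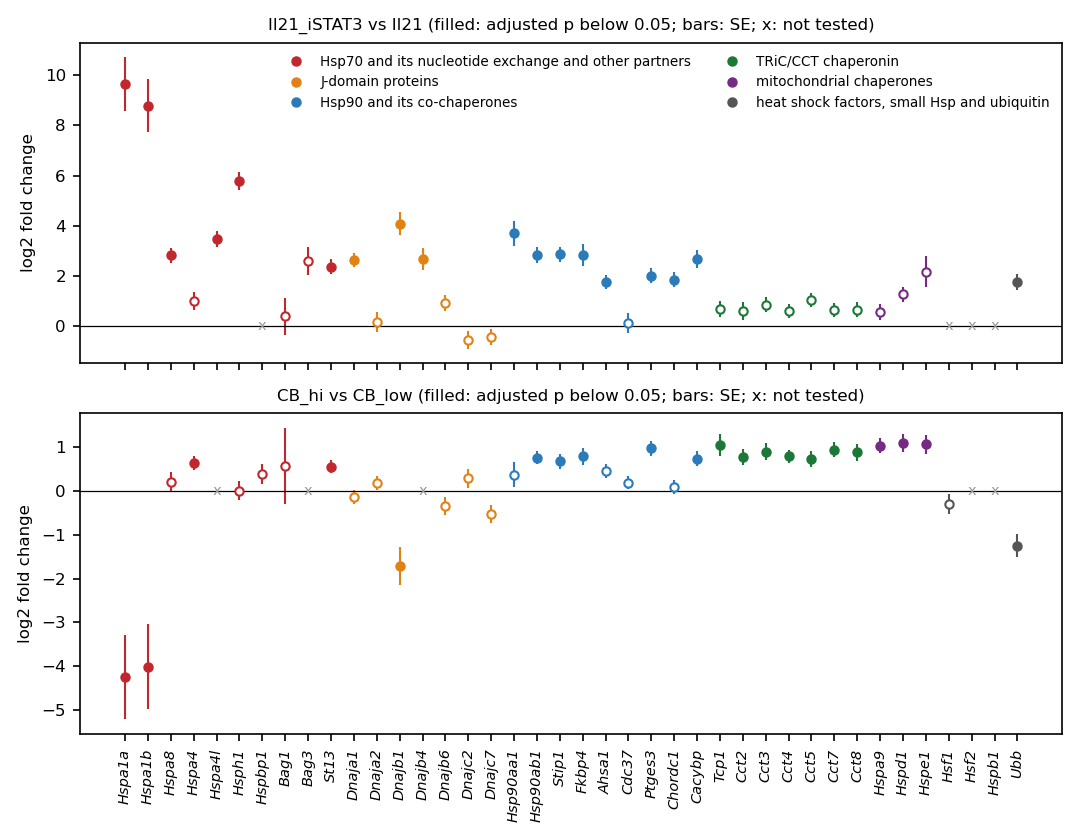
Log2 fold change with its standard error for each of the 40 genes, ordered and coloured by role, in Il21_iSTAT3 against Il21 and in CB_hi against CB_low. Filled points passed an adjusted p of 0.05 and crosses mark genes not tested. Of the 18 genes called with the inhibitor, 6 are in the Hsp70 group, 3 are J-domain genes, 8 are in the Hsp90 group and 1 is Ubb. The Hsp70 and J-domain counts include genes that passed the filter only through the inhibitor group. The 17 higher calls of CB_hi are all 7 CCT subunits, all 3 mitochondrial chaperones, 5 of the Hsp90 group and 2 of the Hsp70 group.

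Set against the promoter search and without the 6 genes that passed the filter only through the inhibitor group, 3 of 9 tested genes with a 2-unit run and 6 of 14 without were called against IL-21. Of those 6, Hspa1a, Hspa1b, Hsph1, Bag3 and Dnajb4 have a 2-unit run and Hspa4l has none. Of the 5 genes with a 3-unit run, Hsph1 (one of those 6) and Chordc1 were called and Dnajb6, Hspd1 and Hspe1 were not. A match of letters describes the window searched and not a site in use.

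Cultured cells without inhibitor held less of several of these genes than freshly sorted cells. Across the 12 fresh and the 4 culture libraries, 36 genes passed 10 RPKM in at least 2 libraries, and in 14 every cultured library lay below every fresh one, against 4.6% of 5694 genes so filtered. Hspa1a, Hspa1b and Hsf1 were above 10 RPKM in no cultured library and so passed only through fresh ones. Of genes above 10 RPKM in at least 1 cultured library, 11 of 31 lay below in this way, against 2.85% of 4949. None of the 36 lay above in all, against 1.9%. The 14 were Hspa1a, Hspa1b, Hspa8, Hspa4, Hspbp1, Hsp90ab1, Ahsa1, Cdc37, Cacybp, Cct5, Cct7, Cct8, Hspd1 and Hsf1. Fresh and cultured cells came from different experiments of the series, so these orders carry no test, and culture and experiment cannot be told apart. The 0 h libraries of the time course, made with a different kit, were left out of both sets. Without IL-21 the 40 genes took 0.895% and 1.06% of counts at 0 h, below the 1.17% to 1.30% of the 4 culture libraries. The orders above thus hold for the 12 fresh libraries only.

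Hspa1a ran from 3.82 to 229 RPKM in fresh cells with a median of 53.0, and from 0 to 0.425 in culture. Hspa1b ran from 7.72 to 628 RPKM fresh, median 136, and from 0.118 to 2.30 cultured. Hspa8 fell within a narrower band, 635 to 961 RPKM fresh and 501 to 577 cultured. The 12 fresh libraries thus carried the inducible Hsp70 transcripts at levels that culture without inhibitor did not show. The 0 h libraries of the time course did not show them either. The inhibitor libraries, at 156 to 187 RPKM of Hspa1a, were within the fresh range only through the second CB_low library. That library read 229 RPKM of Hspa1a and 628 of Hspa1b, the next highest fresh library, the first at gd6.5, read 74.2 and 223, and both inhibitor libraries lay above the other 11 fresh libraries for both genes. Hsph1 did not follow this order, since its 280 and 398 RPKM with inhibitor were above the 4.55 to 17.2 RPKM of all 12 fresh libraries. Dnajb1 and Hsp90aa1 did the same, at 601 to 622 and 831 to 1255 RPKM against 28.5 to 150.5 and 90.9 to 183 fresh.

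**Figure D3:**
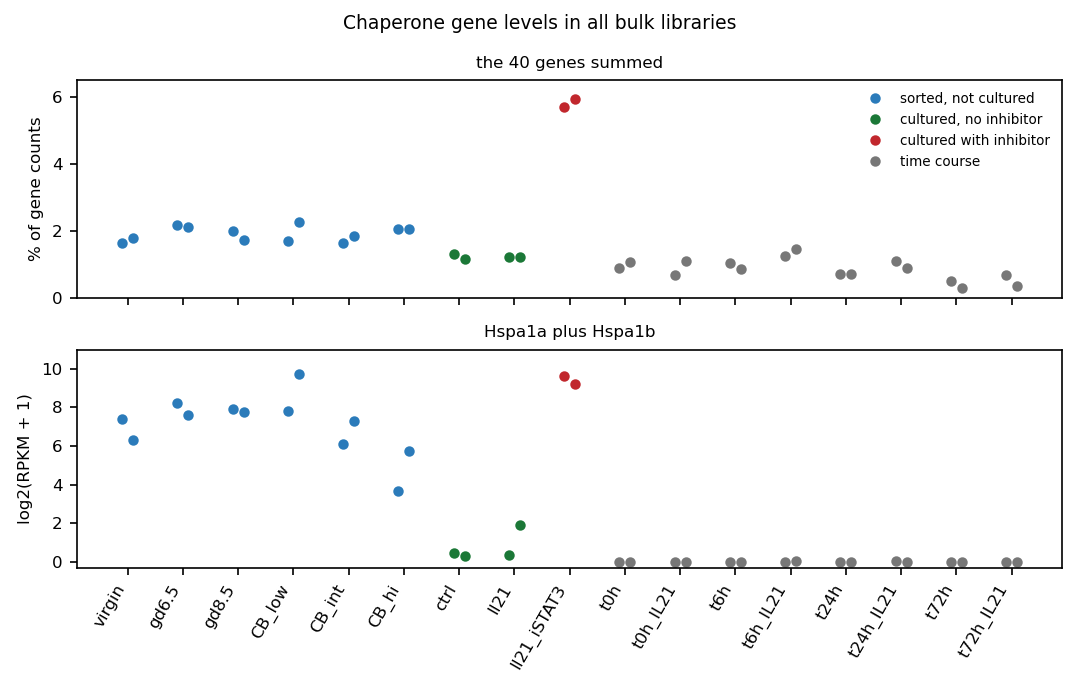
Share of all gene counts taken by the 40 genes (top, percent) and the summed level of Hspa1a and Hspa1b as log2(RPKM + 1) (bottom) in each of the 34 bulk libraries, 1 point a library. The inhibitor libraries stand at 5.71% and 5.92% while every other library is at 2.28% or below, and the Hspa1a and Hspa1b sum is near 0 in the time course.

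In the time course, Hspa1a had 0 counts in 16 of 16 libraries, and Hspa1b was at 0 in 14 of 16 with at most 3 counts in the others. Hspb1 was at 0 in 14 of the 16 as well. A count of 0 allows up to 3 counts, which correspond to 0.0152 to 0.0354 RPKM of Hspa1a, so the 0 h libraries sat below the lowest fresh library by far more than counting error. These libraries were made with a different kit, and the immediate early genes also took only 0.0158% to 0.0443% of their counts, against 0.0699% to 0.899% in the fresh libraries. The kit and the state of the cells cannot be told apart. Of the 40 genes, 28 passed the filter here.

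In IL-15 without IL-21, 11 of 28 genes tested were called lower at 72 h than at the start, among them 4 of 7 in the Hsp90 group, 4 of 7 CCT subunits and 1 of 3 mitochondrial chaperones (16.4% of all genes called lower). At 6 h none of 28 was called and none of the 3503 genes tested was either (0% higher, 0% lower), with 1 of 28 at an unadjusted p below 0.05, 3.57% against 3.03% of all genes, and 0 called by DESeq2. At 24 h none of 28 was called in edgeR (0.0856% of all genes higher, 0.143% lower), with 6 at an unadjusted p below 0.05, 21.4% against 11% of all genes, and 2 called by DESeq2, and 24 of 28 had a negative change. With only the groups compared in the fit 9 were called lower at 24 h, where 10.9% of all genes were called in either direction, and with the 72 h libraries left out of the fit 3, where 6.91% of all genes were. By 72 h 11 were called lower and none higher, against 16.4% and 13.6% of all genes, with a median of -0.85 on the log2 scale against -0.07 for all genes. With only the groups compared in the fit 6 were called at 72 h, where 8.28% of all genes were. The 11 were Hspa8, Dnaja2, Hsp90aa1, Hsp90ab1, Ahsa1, Cacybp, Cct3, Cct5, Cct7, Cct8 and Hspe1.

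Hsp90ab1 read 140 and 137 RPKM at 0 h, 141 and 106 at 6 h, 66.4 and 77.2 at 24 h and 19.9 and 23.4 at 72 h, the last lower than the start by 2.24 on the log2 scale (SE 0.32, edgeR adjusted p = 0.000497). Hsp90aa1 read 186 and 220 RPKM at 0 h, 160 and 177 at 6 h, 105 and 116 at 24 h and 59.6 and 18.7 at 72 h (log2 -2.02, SE 0.36, edgeR adjusted p = 0.00204 at 72 h). For both Hsp90 genes the 24 h and 72 h libraries lay below those at 0 h. Hspa8 moved from 147 and 172 RPKM at 0 h to 185 and 142 at 6 h, 101 and 91.9 at 24 h and 36.7 and 47.2 at 72 h (log2 -1.49, SE 0.38, edgeR adjusted p = 0.0134 at 72 h).

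Hsph1, at 1.29 and 1.48 RPKM at 0 h and 0.116 to 2.24 later, was too low to be tested. Of the chaperonins, 4 of the 7 CCT subunits and, of the 3 mitochondrial chaperones, Hspe1 were called lower. Hspe1 read 430 and 532 RPKM at 0 h, 261 and 346 at 6 h, 168 and 200.2 at 24 h and 126 and 135 at 72 h (log2 -1.45, SE 0.26, edgeR adjusted p = 0.00228 at 72 h). Hspd1 read 46.0 and 52.2 RPKM at 0 h, 41.1 and 29.8 at 6 h, 28.2 and 20.9 at 24 h and 18.1 and 14.6 at 72 h and was not called (edgeR adjusted p = 0.0551). Of the CCT subunits, Cct7 read 26.0 and 37.9 RPKM at 0 h and 3.41 and 3.01 at 72 h (log2 -2.90), Cct8 172 and 219 against 55.8 and 23.1 (log2 -1.93), Cct5 159 and 178 against 31.4 and 40.6 (log2 -1.79) and Cct3 32.3 and 28.6 against 9.60 and 4.71 (log2 -1.70). In all 4 the 72 h libraries lay below those at 0 h, and Tcp1, Cct2 and Cct4 were not called. Ahsa1, an activator of the Hsp90 ATPase, went from 9.35 and 12.6 RPKM to 0.296 and 0.214 (log2 -5.02, SE 0.94, edgeR adjusted p = 0.0026). Dnajb1 did not join them, at 10.8 and 6.37 RPKM at 0 h, 23.0 and 8.68 at 6 h, 5.42 and 8.78 at 24 h and 7.89 and 17.5 at 72 h, all overlapping. The 72 h libraries without IL-21 had 8919 and 8488 genes at 10 or more counts and 8.44% and 11.8% mitochondrial counts, against 11834 and 12221 genes and 3.80% and 4.02% at 0 h, and the part of this in the lower calls was not tested. The summed dividing-cell genes were 451 and 489 CPM at 0 h and 11.9 and 4.56 at 72 h. The 11 genes of the conventional NK list, some of them also trNK markers, summed to 6304 and 6607 against 11430 and 12390. Of these, Klra4 read 1948 and 2135 CPM at 0 h and 3267 and 3839 at 72 h. Itgam read 1.26 and 0.17 CPM at 0 h and 0 at 72 h, and S1pr5 was at 0 throughout. The part of both lists was not tested either. Proteasome genes were also lower, 11 of 30 called.

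IL-21 in the time course was set against the same hour without it. At 6 h no gene of 28 was called (0.657% of all genes higher, 1.54% lower), with 3 at an unadjusted p below 0.05, 10.7% against 12.2% of all genes, and 1 called by DESeq2. Both IL-21 libraries lay above both others in 23 of 28 genes, against 28.8% of all genes. The median change was 0.61 on the log2 scale. At 24 h 27 of 28 stood above in this way, against 32.9% of all genes, and 1 was called (0.371% of all genes higher, 1.43% lower), with a median of 0.65. That gene was Hspe1, at 427 and 511 RPKM with IL-21 and 168 and 200.2 without (log2 1.25, SE 0.26, edgeR adjusted p = 0.0366), and its call was lost without any 1 of the 4 libraries. Ubb alone had a negative change at 24 h, at -0.31. Hspa4 passed the filter only through the 6 h IL-21 group. St13, Dnajb1, Ahsa1 and Chordc1 passed only through the 6 h and 24 h IL-21 groups. The filter thus favoured higher levels with IL-21 in these genes. The counts of 23 and 27 and both medians include them and were not taken without them. With only the groups compared in the fit, 12 genes were called at 6 h and 20 at 24 h, where 12.3% and 28.7% of all genes were called in either direction. With the 72 h libraries left out of the fit, 4 and 6 were called, where 8.28% and 10.6% of all genes were. Mitochondrial counts were 2.54% and 1.904% with IL-21 against 3.57% and 3.78% without at 6 h, and 2.28% and 2.80% against 4.76% and 4.58% at 24 h. Genes at 10 or more counts numbered 12589 and 12234 with IL-21 and 11513 and 11842 without at 24 h, and the trNK markers summed to 1751 and 1684 CPM against 3100 and 2881. At 6 h the trNK markers summed to 1099 and 1175 CPM with IL-21 against 2586 and 2538 without, and the conventional NK list to 4329 and 4028 against 5978 and 6227. The lists share Ncr1, Klrb1c and Eomes. Ncr1 read 699 and 753 CPM with IL-21 against 1507 and 1380, and Klrb1c 340 and 345 against 946 and 997. The part of these in the IL-21 differences was not tested. At 72 h 1 of 28 was called higher (7.34% of all genes higher, 2.06% lower), Ahsa1 at 6.83 and 0.568 RPKM against 0.296 and 0.214 (log2 3.62, SE 0.88, edgeR adjusted p = 0.0269), and the first IL-21 library held most of its RPKM. Without the first 72 h library lacking IL-21, 8 genes were called at 72 h, without the first IL-21 library 2, both lower, and without the second 4, where 29.3%, 7.65% and 17.4% of all genes were called. A fit of these 4 libraries alone called no gene of the 28 and 0% of all genes. At 72 h mitochondrial counts were 4.37% and 5.73% with IL-21 against 8.44% and 11.8% without, and genes at 10 or more counts numbered 11685 and 9588 against 8919 and 8488. The summed dividing-cell genes were 192 and 88.9 CPM with IL-21 and 11.9 and 4.56 without. The part of these in the Ahsa1 call was not tested. Tested directly, a difference of the IL-21 effect between 6, 24 and 72 h was called for none of the 28 genes, against 0%, 4.25% and 4.34% of all genes for 24 against 6 h, 72 against 6 h and 72 against 24 h. The libraries labelled 0 h with IL-21 had no called gene against 0 h (0% of all genes), with 2 at an unadjusted p below 0.05, 7.14% against 3.14% of all genes, and 0 by DESeq2.

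**Figure D4:**
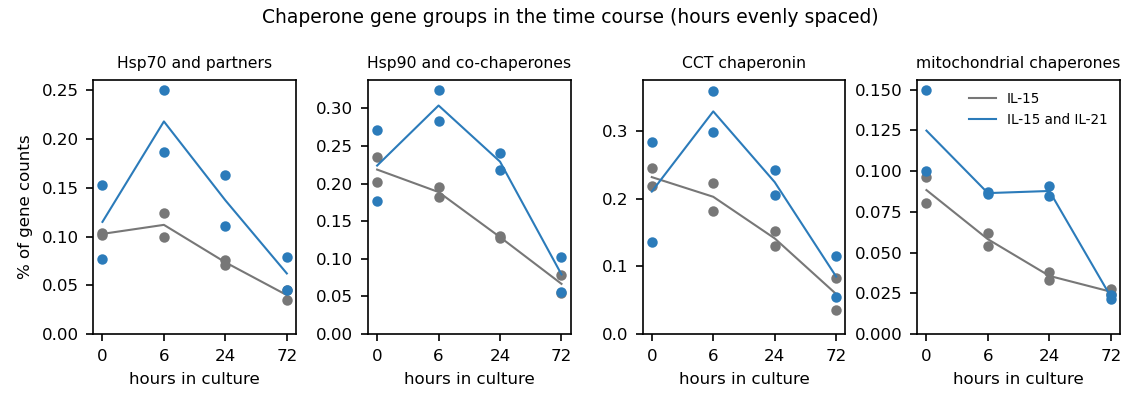
Share of all gene counts (percent) taken by Hsp70 and its partners, Hsp90 and its co-chaperones, the CCT subunits and the mitochondrial chaperones at 0, 6, 24 and 72 h, with points for libraries and lines through the mean of 2, in IL-15 alone or with IL-21. All 4 shares without IL-21 are lower at 72 h than at 0 h, and the IL-21 libraries are above the others at 6 and 24 h.

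Among the subsets at gd8.5, chaperone genes were called in both directions. In CB_hi against CB_low, 17 of 35 genes were higher and 4 lower, against 15.1% and 19.5% of 4683 genes. The 4 lower genes were Hspa1a, Hspa1b, Dnajb1 and Ubb. The 17 higher ones took in all 7 CCT subunits, all 3 mitochondrial chaperones, Hsp90ab1, Stip1, Fkbp4, Ptges3 and Cacybp of the Hsp90 group, and Hspa4 and St13.

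Hspa1a read 50.7 and 229 RPKM in CB_low, 18.8 and 59.9 in CB_int and 3.82 and 11.02 in CB_hi (log2 -4.25 for CB_hi against CB_low, SE 0.96, edgeR adjusted p = 0.0185). Hspa1b read 170 and 628 RPKM, 49.1 and 95.4, and 7.72 and 42.1 in the same groups (log2 -4.01, SE 0.96, edgeR adjusted p = 0.0221). CB_hi lay below CB_low for both, CB_int overlapped CB_low for Hspa1a and not for Hspa1b, and the second library of each group was the higher one. Their sum took 0.0626% and 0.244% of counts in CB_low, 0.0193% and 0.0445% in CB_int, and 0.0033% and 0.0151% in CB_hi. For the sum, CB_int thus lay below CB_low. Dnajb1 read 65.9 and 150.5 RPKM in CB_low against 28.5 and 37.5 in CB_hi (log2 -1.71, SE 0.42, edgeR adjusted p = 0.0238). Ubb read 2538 and 3801 RPKM against 1580 and 1086 (log2 -1.25, SE 0.26, edgeR adjusted p = 0.0153).

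Upward, Hspd1 read 97.7 and 111 RPKM in CB_low and 207 and 236 in CB_hi (log2 1.09, SE 0.21, edgeR adjusted p = 0.0126), Hspe1 108 and 93.8 against 211 and 207.5 (log2 1.06), and Hspa9, the mitochondrial Hsp70, 37.3 and 37.2 against 71.4 and 80.2 (log2 1.03). Tcp1, the alpha subunit of CCT, read 54.1 and 35.7 RPKM against 83.8 and 101 (log2 1.04, SE 0.25, edgeR adjusted p = 0.0206). The other 6 CCT subunits differed by 0.73 to 0.94 on the log2 scale. Hspa8, Hsph1 and Hsp90aa1 were not called, with log2 changes of 0.20, -0.0004 and 0.37. Endoplasmic reticulum chaperones went the same way with 13 of 14 higher, led by Creld2 at 2.101, Pdia6 at 2.01 and Manf at 1.91, as did 15 of 31 proteasome genes, led by Psma4 at 1.09. Of 14 immediate early genes 10 were lower, led by Fos at -3.44, Jun at -3.32 and Junb at -3.09, and Ier3 was higher with 0 RPKM in both CB_low libraries. The summed dividing-cell genes were 240 and 320 CPM in CB_low and 550 and 778 in CB_hi. The conventional NK list, of which 3 genes are also trNK markers, summed to 4981 and 6396 CPM in CB_low and 1927 and 1760 in CB_hi, and T cell markers to 764 and 809.1 against 330 and 243. Of the 9 T cell markers, 4 and 2 were at 0 in the CB_low libraries and 4 in each CB_hi library. Cd4 and Cd8a were at 0 in all of these. The part of these differences in the calls was not tested.

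The second CB_low library held the highest Hspa1a and Hspa1b of all fresh libraries, and its summed macrophage markers were 586 CPM against 79.1 in the first, 383 and 556 in CB_int and 26.8 and 23.4 in CB_hi. None of the 8 macrophage markers was at 0 in that library or in either CB_int library. Stromal markers were 344 CPM in the first CB_low library and at most 29.2 in the other 5. Plasma cell genes were 16410 CPM in the second CB_int library and at most 28.9 in the other 5. The part of these cells in the result was not tested. Without the second CB_low library 3 genes were called, all higher, and without the second CB_hi library 2, and without the first library of CB_low or of CB_hi 12 and 11. Of all genes 14.7%, 9.44%, 22.2% and 20.6% were called in these fits, so the 3 and 2 of 35 lie below the background. CB_int differed from CB_low in no called gene (0.256% of all genes higher, 0.0641% lower), with 7 at an unadjusted p below 0.05, 20% of the 35 against 20.1% of all genes, and 1 by DESeq2. CB_hi differed from CB_int in none either (0.342% higher, 1.49% lower), with 16 at an unadjusted p below 0.05, 45.7% against 22.9% of all genes, and 6 by DESeq2.

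Over gestation, 5 of 35 genes were higher at gd6.5 than in virgin mice and none lower, against 5.02% and 4.31% of 4504 genes. Fkbp4 (log2 1.25), Hspa9 (1.13), Hspa1a (1.07), Hspa4 (0.99) and Hsp90ab1 were the 5. Fkbp4 read 137 and 129 RPKM at gd6.5 against 47.4 and 57.9 in virgin mice, and Hspa9 107 and 94.97 against 40.3 and 46.5. Hspa4 read 58.3 and 54.9 against 21.7 and 31.9, and Hsp90ab1 984 and 990.1 against 487 and 595. At gd8.5 both libraries read below both gd6.5 libraries for each of these 4, such as Hsp90ab1 at 696 and 662 RPKM. These 4 were picked for their higher calls at gd6.5, so this order is a description and has no share of all genes beside it. Hspa1a and Hspa1b together overlapped, at 0.0688% and 0.0624% of counts at gd8.5 against 0.0847% and 0.0547% at gd6.5. Hspa1a read 74.2 and 55.3 RPKM at gd6.5 and 30.3 and 27.7 in virgin mice (SE 0.20, edgeR adjusted p = 0.0311). Hspa1b read 223 and 137 against 135 and 51.5 and was not called. Their sum took 0.0847% and 0.0547% of counts at gd6.5 against 0.0468% and 0.0227% in virgin mice. Libraries stood apart upward in 22 of 35 genes, against 31.5% of all genes. Hsph1 and Hsf1 passed the filter only through the gd6.5 group, which favoured higher levels there. Neither was called, so the 5 called were among the other 33 genes. The 22 of 35 was not counted without Hsph1 and Hsf1. The calls at gd6.5 were fragile, with 0 called without either gd6.5 library, 9 without the first virgin library and 18 without the second, where 21.4% and 32.7% of all genes were called. With only the groups compared in the fit 0 were called, and 0% of all genes. At gd8.5 none of 35 was called against virgin mice (0.0222% higher, 0.4% lower), with 4 at an unadjusted p below 0.05, 11.4% of the 35 against 14.2% of all genes, and 2 by DESeq2. Without the second virgin library 10 were called there, and without the first 1, where 20.8% and 1.69% of all genes were. No gene of 35 was called for gd8.5 against gd6.5 (0% of all genes in both directions), with 7 at an unadjusted p below 0.05, 20% against 23.8% of all genes, and 6 by DESeq2. These comparisons share the virgin and gd6.5 libraries. The summed dividing-cell genes were 295 and 415 CPM in virgin mice and 850 and 573 at gd6.5. The conventional NK list summed to 4278 and 3686 CPM in virgin mice and 2319 and 3316 at gd6.5. Mitochondrial counts were 1.63% and 1.43% in virgin mice against 0.955% and 1.10% at gd6.5. T cell markers were 1055 CPM in the first virgin library and 448 in the second, against 443 and 335 at gd6.5. Of the 9 T cell markers, Cd3e, Cd4, Cd8a and Cd8b1 were at 0 in both virgin libraries. Cd3g read 599 CPM in the first virgin library and 88.1 in the second. Erythrocyte genes were 172.5 CPM in the second virgin library and 666 in the second gd8.5 library, and at most 9.72 in the other 4. The part of these in the calls was not tested.

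The single-cell matrix joined 2 tables that give different genes, 35237 in all, for 1 set of 15175 cells. It held columns for 36 of the 40 genes, and Hspa4l, Dnajb1, Ptges3 and Hspa9 were not analysed here. No file ties a cell to virgin or gd8.5 mice, so the matrix was 1 sample and has no test between groups. Clusters were formed without the 40 genes and without the endoplasmic reticulum chaperone, proteasome, immediate early and oxidative stress lists. The other genes of a cluster helped to form it, and its values are descriptions. Cells with over 200 and under 2500 unique molecular identifiers (UMIs) and under 10% mitochondrial UMIs numbered 4338. Of these, 1429 in 4 clusters were trNK-like by Itga1, Ncr1, Klrb1c and Eomes. The name was open only to clusters that the other lists left unnamed. It required Itga1, and at least 3 of the 4 genes in all, at over 2-fold their level in B-like cells. Levels are UMIs scaled to the UMI total of the cells (CPM) with exact Poisson intervals and shares have exact binomial ones, which cover counting error only. The leading 10 genes of cluster 3, 1 of the 4, hold Klra4 and Klra8 of the conventional NK list and none of the 4 trNK genes, so its name is uncertain and values are also given without it. In cluster 3 none of the 4 trNK genes counted as more than 3-fold above the rest of the cells. In cluster 1, named conventional NK-like, 2 of them did.

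In trNK-like cells the 36 genes took 1.393% of UMIs (95% interval 1.378 to 1.408), and Hspa1a plus Hspa1b stood at 2129 CPM (2071 to 2189). Without cluster 3, 734 cells remained, with 1.397% (1.376 to 1.418) and 1801 CPM (1727 to 1878). Among the trNK-like clusters, the sum was 2476 CPM in cluster 3, whose leading genes include Cox6a2 and Kit, 2217 in cluster 4, led by Itga3, and 2515 in cluster 13, led by interferon genes such as Cxcl10 and Ifit1. Cluster 6, with the granzymes Gzmd, Gzme and Gzmf among its leading genes, was lowest at 1004 CPM (912.5 to 1102). All 4 division genes, Mki67, Top2a, Ube2c and Rrm2, were more than 3-fold above the rest of the cells in cluster 6, and the part of cell division in its values was not tested. Its CCT sum was 2255 CPM (2116 to 2400), against 1347 (1280 to 1415) in cluster 3, 1670 (1575 to 1768) in cluster 4 and 1440 (1192 to 1725) in cluster 13. Its Hspd1 and Hspe1 sum was 1184 CPM, against 615, 815 and 586 in the same 3 clusters, and its Hsp90 group sum 5404 against 4594, 4680 and 4590. Its J-domain sum was 824 CPM (741 to 913), against 1105, 961 and 1123. Immediate early genes were 3786 CPM in cluster 6, against 13560, 8218 and 14310, endoplasmic reticulum chaperones 8935 against 4457, 5494 and 4602, and oxidative stress genes 2189 against 357, 499 and 342. The small heat shock gene Hspb1 was among the leading genes of cluster 4, at 103 CPM (80.5 to 130) against 31.2 in cluster 3 and 25.1 in cluster 6.

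Other cells of the preparation spanned a wide range of inducible Hsp70. Hspa1a plus Hspa1b was 10370 CPM (9820 to 10950) in cluster 11, 79 unnamed cells led by Ace, Ly6i and Ear2, where the 36 genes took 2.142% of UMIs. Macrophage-like cells stood at 5044 CPM, conventional NK-like (cNK-like) cells at 3395 and cluster 5 at 2657. That cluster held 3 ILC1 markers, but among its top 10 genes Mcpt4, Tpsb2 and Cpa3 are known from mast cells and Tcrg-C4, Tcrg-C1 and Tcrg-C2 from gamma delta T cells, beside Cxcr6, so its ILC1-like name is uncertain. B-like and T-like cells were at 300.1 (248 to 360) and 324 (266 to 391) CPM, and erythrocyte-like cells at 196. The CCT sum spanned less, from 1005 CPM in macrophage-like cells to 1613 in T-like cells among the clusters of 50 or more cells other than the trNK-like and erythrocyte-like ones. All trNK-like clusters were above the B-like and T-like levels of Hspa1a and Hspa1b, which include any free RNA.

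The upper UMI limit removed 58.3% of all cells. Without it 13084 cells remained, of which 5411 were trNK-like, and their Hspa1a plus Hspa1b level was 1021 CPM (1011 to 1030). Cluster 2 of that setting, led by Cd7 and Cox6a2, held Klra4 among its leading 10 genes and none of the trNK genes, and without it the level was 898 CPM (888 to 907). It stood at 1612 CPM, cluster 1, led by Gzmf, at 885 and cluster 5, led by division genes such as Hmmr and Mki67, at 920. Clusters 3 and 9 of that setting, 1914 and 441 cells that stayed unnamed, were at 76.0 and 80.7 CPM, below the 372 CPM of B-like cells. Their median mitochondrial shares were 0.0754% and 0.0645%, against 2.55% to 4.91% in the other clusters of 142 or more cells, and their Hspe1 levels were 1304 and 1615 CPM against 604 to 1044 in the trNK-like clusters, and their Hsp90ab1 levels 4082 and 4467 against 2948 to 4284. The part of the low mitochondrial share in these values was not tested.

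**Figure D5:**
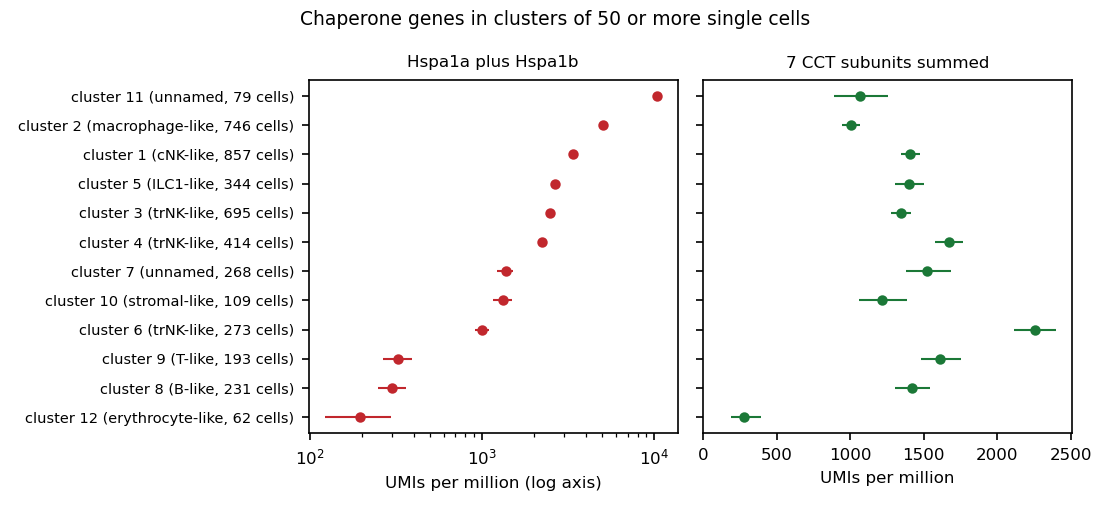
Level of Hspa1a plus Hspa1b (left, log axis) and of the 7 CCT subunits (right) in CPM in each cluster of 50 or more cells within the UMI limits, with exact 95% Poisson intervals as bars. Inducible Hsp70 runs from 196 to 10370, and the trNK-like cluster 6 has the lowest Hspa1a and Hspa1b of the trNK-like clusters shown and the highest CCT sum of all. The names of clusters 3 and 5 are uncertain.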

How the data were processed

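The authors aligned reads to mm10 with HISAT2 2.1.0 and deposited raw counts per gene for 34 bulk libraries. The submitters' processing notes list featureCounts and the methods also name RSEM, and the files hold whole numbers. The libraries of the first 3 experiments and of the time course were made with different amplification kits. The authors deposited the single cells as UMI counts per cell from BD Rhapsody, pooled over samples. RPKM was computed here from the counts, the deposited exonic lengths and total gene counts. Genes above 10 RPKM in both libraries of any group were tested with edgeR 4.0.16 (TMM, quasi-likelihood, all groups of an experiment in one fit, Benjamini-Hochberg over all genes tested), and called at an adjusted p below 0.05. Alternatives were RLE factors, DESeq2 1.42.0, limma 3.58.1 (voom), no filter, a replicate block, fits of only the groups compared, and each library left out. The edgeR step was tested on simulated data. Cells were clustered with scanpy 1.11.5 on 2000 variable genes and 20 components at a Leiden resolution of 0.8. No doublet caller was run, and the thresholds for naming clusters were set after the clusters were seen.

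In each comparison the called members were named with their values (the 8 with the largest change where more were called), as were 9 members, Hspa1a to Hspe1, in the inhibitor culture and the time course. The members and gene lists were chosen with earlier results of these data known. ATAC-seq samples were not analysed here. A list of other cytosolic and mitochondrial chaperones is not reported here.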

Additional observations from a re-analysis of the deposited data

How the results depend on the processing

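Values here are numbers of chaperone genes called. With DESeq2, 12 were called at gd6.5 against virgin mice, 2 at gd8.5 against virgin, 6 at gd8.5 against gd6.5, 1 in CB_int against CB_low, 6 in CB_hi against CB_int, 1 in Il21 against ctrl, 2 at 24 h against 0 h, and 1 and 2 for IL-21 at 6 and 24 h. The shares of all genes called by DESeq2 in these comparisons, in the same order, were 25.1%, 6.15%, 14.9%, 9.31%, 13.3%, 3.9%, 5.68%, 5.37% and 6.62%. With no filter on low values, the numbers were 12, 3, 4, 3, 4 and 2 for the first 6 of these comparisons, 1 at 24 h against 0 h and 1 for IL-21 at 6 h, with 5.15%, 2.39%, 2.42%, 2.35%, 2.83%, 0.687%, 0.152% and 0.277% of all genes. With only the groups compared in the fit, 0 were called at gd6.5 against virgin, 9 at gd8.5 against gd6.5, 9 and 6 at 24 and 72 h against 0 h, and 12, 20 and 0 for IL-21 at 6, 24 and 72 h, with 0%, 20.4%, 10.9%, 8.28%, 12.3%, 28.7% and 0% of all genes. Limma-voom gave 0 for IL-21 at 72 h, with 10.9% of all genes. A fit leaving out the 72 h libraries, chosen after seeing the data, gave 3 at 24 h against 0 h and 4 and 6 for IL-21 at 6 and 24 h, with 6.91%, 8.28% and 10.6% of all genes. Leaving out 1 library gave 0 to 18 at gd6.5 and 0 to 10 at gd8.5 against virgin, 2 to 12 in CB_hi against CB_low, 2 to 12 for the inhibitor against IL-21 and 10 to 17 against ctrl, 8 to 16 at 72 h against 0 h, and 0 and 1 to 8 for IL-21 at 24 and 72 h. Of all genes these fits called 0% to 32.7%, 0% to 20.8%, 9.44% to 22.2%, 0.168% to 0.938%, 0.89% to 2.21%, 16.6% to 46%, 0.0285% to 0.143% and 7.65% to 29.3%, in the same order. Each such fit has fewer samples, and the lone library of a group is assumed to vary like the others. The cause of the other shifts was not tested.

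Same-numbered libraries did not deviate together in every pair of groups, with correlations of 0.60, -0.44 and -0.50 in the inhibitor culture, so the numbers were not taken as pairs. A replicate block gave 0 at gd6.5 against virgin, 1 in CB_int against CB_low, 2 in CB_hi against CB_int, 4 for the inhibitor against IL-21 and 14 against ctrl, 1 at 24 h against 0 h and 1 for the change of the IL-21 effect from 24 to 72 h. Of all genes the blocked fits called 0.0444%, 0.534%, 3.69%, 0.192%, 1.32% and 0.171% in the first 6 of these. The last count stands without its share of all genes, so it cannot be set against such a background.

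Signs turned only in uncalled values with 1 library left out. Leaving out each library in turn gave log2 changes of -0.71 to 6.66 for Hspa1a, -0.24 to 1.04 for Dnajb1 and -0.0501 to 1.67 for Hspe1 in Il21 against ctrl, -0.18 to 0.10 for Hspa8 at 6 h and -0.59 to 0.22 for Dnajb1 at 24 h against 0 h. Of the values for single genes, 598 kept their direction and call, 81 lost a call and 16 gained one.

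In trNK-like cells, the chaperone share was 1.355% with the same limits put on detected genes, 1.444% with no upper UMI limit and 1.333% with no mitochondrial limit, and Hspa1a plus Hspa1b was 1486 CPM, 1021 CPM and, at resolution 0.4, 2241 CPM. With 2 libraries a group, a change that misses the threshold is not shown to be absent.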
